A study of Mus musculus with 447 samples.

Results

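Fev and 6 genes of the serotonin pathway (Tph1, Tph2, Lmx1a, Slc18a1, Slc18a2 and Ddc) were followed through single cells of the mouse fetal pancreas at E15.5 (embryonic day, as labelled). These 7 genes were chosen by their roles, and all 7 were rows of both deposited matrices, which together held 40824 gene symbols. The assay was Smart-seq3, a plate-based method in which each sorted cell gives its own full-length cDNA library. The 447 cells fell into 4 groups by genotype and by the set number in their titles. Set 2 held 322 cells, 63.7% of them Ngn3KO and 36.3% Neurod1OE, and set 3 held 30 Ngn3KO and 95 Neurod1OE cells.

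Ngn3KO stands here for the sample label Pdx1CreNgn3KONeurod1OE and Neurod1OE for Pdx1CreNeurod1OE, so every group carried the Neurod1 overexpression allele together with a Cre driven by Pdx1, and the genotypes differed in the deletion of Ngn3 (Neurog3). The sample labels write the driver as Pdx1Cre, whereas the design text of the series writes Pdx1CreER and gives the deleted allele as Ngn3fl. That text describes the cells as GFP+ sorted. Wild type cells were not analysed here. No label names an animal or litter, so each group counted as 1 sample. No test between groups or between classes of cells was run, and the 95% intervals given below (exact Poisson for summed reads, exact Clopper-Pearson for shares of cells) cover counting error only. For a count of 0, the share that it leaves room for is 3 cells of the number looked at. The reads are PCR products, not independent molecules.

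Fev is an ETS-family transcription factor of serotonin neurons, and in the developing pancreas it marks endocrine precursors that have left the Neurog3 stage. Serotonin is made from tryptophan in a pair of steps. Tryptophan hydroxylase, encoded by Tph1 in peripheral tissues and Tph2 in neurons, is rate-limiting, and the aromatic L-amino acid decarboxylase encoded by Ddc completes the synthesis. The vesicular monoamine transporters VMAT1 (Slc18a1) and VMAT2 (Slc18a2) load the amine into secretory granules, and Lmx1a encodes a LIM-homeodomain factor of midbrain dopamine neurons and gut enterochromaffin cells.

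The overexpressed factor Neurod1 belongs to the basic helix-loop-helix class, which binds E-boxes of the form CANNTG, so the 250 bases before each start site were searched for that motif. Windows from RefSeq (GRCm38.p6) were matched for 6 of the 7 members, and the promoter of Slc18a1 was not analysed here. The Fev window (chr1:74885409-74885658, minus strand) held no CANNTG. The Slc18a2 window (chr19:59260628-59260877, plus strand) held 1, a CAGCTG whose distance to the start site was 87 bases and which is in capitals in its sequence.
Fev promoter: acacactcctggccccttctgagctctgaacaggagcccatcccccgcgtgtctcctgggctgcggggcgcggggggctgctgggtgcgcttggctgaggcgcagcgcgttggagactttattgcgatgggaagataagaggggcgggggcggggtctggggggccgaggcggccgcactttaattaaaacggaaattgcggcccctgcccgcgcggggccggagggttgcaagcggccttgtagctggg
Slc18a2 promoter: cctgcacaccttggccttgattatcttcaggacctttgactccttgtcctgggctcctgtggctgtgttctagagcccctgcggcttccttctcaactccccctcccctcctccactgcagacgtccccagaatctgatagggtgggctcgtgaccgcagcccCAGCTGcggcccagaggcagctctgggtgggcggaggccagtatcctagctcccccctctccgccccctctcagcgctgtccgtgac
Lmx1a had 1 E-box (CAAGTG, 11 bases before its start site), while the windows of Tph1, Tph2 and Ddc had none. CANNTG, which reads the same on both strands, was present in 66.22% of 32851 windows of the same length, and CAGCTG in 13% of them. A match or its absence in such a window describes letters only.

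Cells held between 25769 and 2788066 reads assigned to genes, with medians of 344128 in Ngn3KO and 572744 in Neurod1OE cells of set 2, and 728074 in Ngn3KO and 695079 in Neurod1OE cells of set 3. No cell occurred in both sets, and no pair of cells had identical counts. Neurog3 itself was low in all groups, at 3.06 and 3.89 CPM in Ngn3KO and Neurod1OE cells of set 2, and 3.72 and 17.8 CPM in Ngn3KO and Neurod1OE cells of set 3 (CPM, reads per 1000000 reads assigned to genes). The 30 cells labelled Ngn3KO in set 3 stood apart from the rest. Neurod1, which their label gives as overexpressed, was at 30.4 CPM in them against 217 CPM in Neurod1OE cells of set 3, and 12 of the 30 reached 10 CPM. In 29 of these 30 cells the acinar enzyme gene Cpa1 reached 1000 CPM, against 16 of the 95 Neurod1OE cells of set 3. Differences of the members and of the wider pathway list between genotypes in set 3 are therefore given also within cells of the same Cpa1 and hormone state. By Xist and 4 Y-linked genes, called cells of the 2 Ngn3KO groups were all female in set 2 and all male in set 3, whereas the Neurod1OE groups held both sexes. Set 2 also divided by its title numbers into cells with and without reads of Gm12338 at 10 CPM or more. In both genotypes the positive cells came first in title number, and the later cells were negative except for 5 Ngn3KO cells. The negative block held 97 Ngn3KO cells (47.3% of the group) and 66 Neurod1OE cells (56.4%). Among Neurod1OE cells of set 2 this division coincided with sex, since all 48 cells called male were positive and all 64 called female were negative. For the members and for several hormone genes, values of set 2 are therefore given also within these blocks.

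Fev was the most abundant member per kilobase of exon in all groups but the Ngn3KO cells of set 3. Divided by the length of the joined exons in GENCODE M21, its level was 44.9 CPM per kilobase in Ngn3KO and 62.1 in Neurod1OE cells of set 2, and 1.29 in Ngn3KO and 68.1 in Neurod1OE cells of set 3. Ddc followed with 18.3, 18.6, 36 and 23.3 CPM per kilobase in the same groups. Slc18a2 (6.80, 3.68, 3.36 and 7.59) and Slc18a1 (4.74, 3.64, 0.344 and 3.87) were lower. Tph2 did not pass 1.24 CPM per kilobase in any group, and Tph1 and Lmx1a lay close to 0. Reads of Slc18a1, Slc18a2 and Ddc are less certain than those of Fev, since each overlaps an antisense gene and Slc18a1 also overlaps Atp6v1b2, and no source used here says whether counting used the strand.

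**Figure D1:**
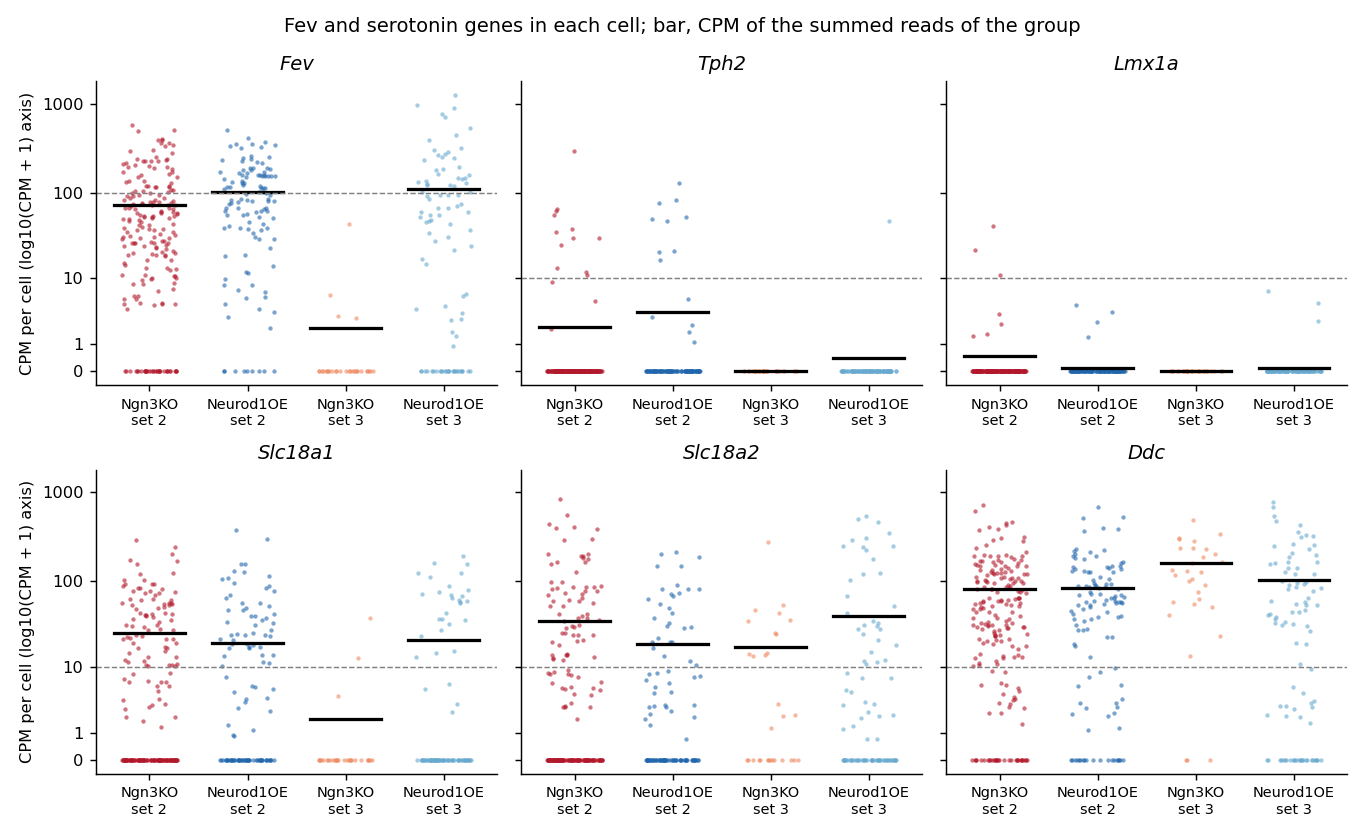
Level of Fev, Tph2, Lmx1a, Slc18a1, Slc18a2 and Ddc in every cell, on the log10(CPM + 1) scale, by group. Each point is a cell, the black bar is the CPM of the summed reads of the group, and the dashed line marks 100 CPM for Fev and 10 CPM for the other genes. Fev and Ddc are spread over most cells of set 2, Tph2 and Lmx1a are carried by isolated cells, and Fev is near 0 in the Ngn3KO cells of set 3.

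Fev (ENSMUSG00000055197.4) occupies chromosome 1 from 74881509 to 74885419 on the minus strand. In Ngn3KO cells of set 2 it ranged from 0 to 583 CPM with a median of 38.5, and the summed reads gave 72.6 CPM (95% interval 70.7 to 74.5). Neurod1OE cells of set 2 had a median of 81.8 CPM, a highest cell of 503 CPM and a summed level of 100.5 CPM (98.2 to 102.7). The cells of both genotypes overlapped over nearly the whole range. The log2 ratio of Ngn3KO over Neurod1OE, on the log2(CPM + 1) scale, was -0.46 (-0.53 to -0.39). Within the Gm12338-positive block the levels were 69.1 CPM in Ngn3KO and 88.1 CPM in Neurod1OE cells, within the negative block 76.9 and 113.3 CPM, and among female cells 73.4 and 110 CPM. Fev was lower in Ngn3KO cells in each of these subsets.

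In set 3, 1 of the 30 Ngn3KO cells reached 10 CPM of Fev, a cell with 43.7 CPM that held 73.9% of the group's 46 Fev reads. The median was 0 and the summed level 2.08 CPM (1.53 to 2.78). Neurod1OE cells of set 3 had a median of 48.7 CPM, a highest cell of 1258 CPM and a summed level of 110.2 CPM (107.8 to 112.7). The log2 ratio was -5.17 (-5.49 to -4.85), where the median over all 10478 measured genes was -0.57. Without the top cell of each group the ratio was -5.99. Among Cpa1-high cells that were hormone-free (under 1000 CPM of each of Gcg, insulin, Sst, Ppy and Ghrl), the only state with at least 10 cells in both groups, Fev was at 0.590 CPM in 28 Ngn3KO cells and 0.492 CPM in 11 Neurod1OE cells, and no such cell was rich in Fev. The difference in Fev between genotypes in set 3 thus stood beside a difference in which cells each group held, and the part of the deletion in it cannot be told apart from that of the cells sampled.

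Cells with at least 100 CPM of Fev are called Fev-rich. They numbered 50 among Ngn3KO cells (24.4% of the group, 18.7 to 30.9) and 52 among Neurod1OE cells (44.4%, 35.3 to 53.9) in set 2. In set 3 they were 0 of 30 Ngn3KO cells, a count that leaves room for 10%, and 33 of 95 Neurod1OE cells (34.7%, 25.3 to 45.2). The share in set 2 was 25% in Ngn3KO and 35.3% in Neurod1OE cells of the Gm12338-positive block, and 23.7% and 51.5% in the negative block. The limit cut a continuous range. The lowest Fev-rich cell of any group was a Neurod1OE cell of set 2 with 100.3 CPM, and the highest cells outside had 99.7 CPM in Ngn3KO cells of set 2, and 99.5 and 93.8 CPM in Neurod1OE cells of sets 2 and 3. Between 80 and 100 CPM lay 11 Ngn3KO and 9 Neurod1OE cells of set 2 and 5 Neurod1OE cells of set 3, and between 100 and 120 CPM 11, 9 and 3 cells of the same groups. Median depth was 329976 reads in Fev-rich and 361608 in other Ngn3KO cells of set 2, 575646.5 and 550360 in Neurod1OE cells of set 2, and 682756 and 697196 in Neurod1OE cells of set 3.

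By hormone state, Fev was broad among cells that were high in glucagon. A hormone counted as high at 1000 CPM. Cells high in Gcg alone had 74.8 CPM of Fev in Ngn3KO and 91.3 CPM in Neurod1OE cells of set 2, and 111.8 CPM in the 19 such Neurod1OE cells of set 3. Cells high in Gcg with another of insulin, Sst, Ppy and Ghrl had 72.01 CPM in Ngn3KO and 114.1 CPM in Neurod1OE cells of set 2, and 66.9 CPM in Neurod1OE cells of set 3. The highest summed level, 188.6 CPM, was in 41 Neurod1OE cells of set 3 that were high in none of these hormones and low in Cpa1. Their median was 67.2 CPM, below the 83.7 CPM of Gcg-alone Neurod1OE cells of set 2, so the sum rested on part of those cells. The 10 insulin-high Ngn3KO cells of set 2 lay at the low end, with a median Fev of 6.52 CPM against 38.7 CPM in Gcg-high cells. None of the 10 was Fev-rich (exact interval 0 to 30.85%), a range that holds the 24.75% of Gcg-high cells. Of 5 insulin-high Neurod1OE cells of set 2, 2 were Fev-rich.

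**Figure D2:**
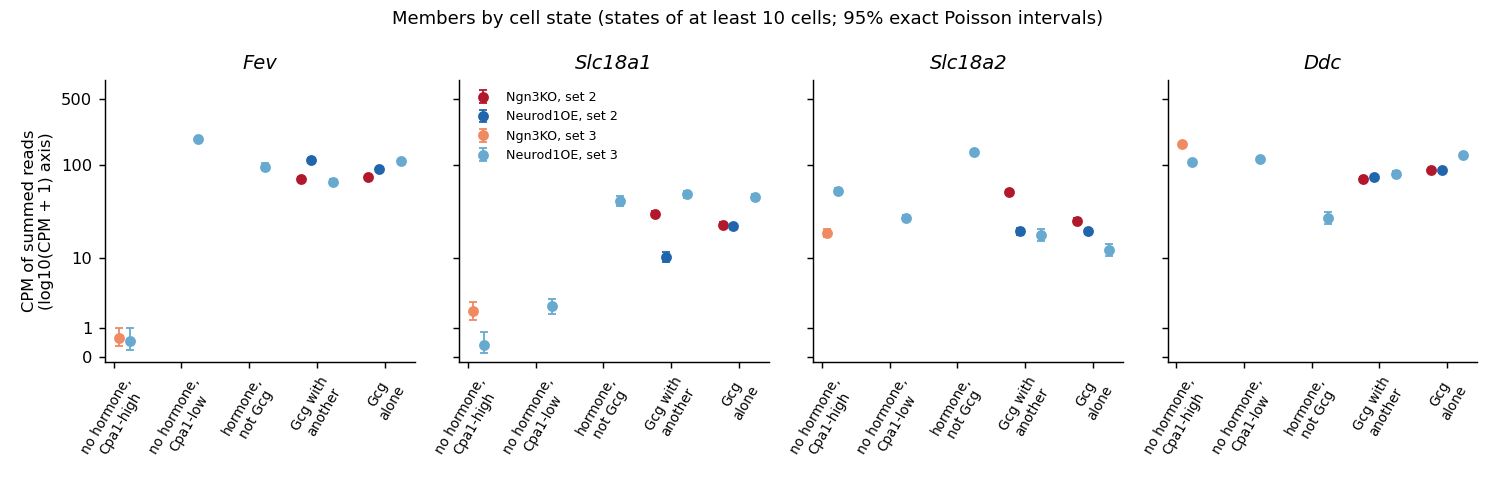
Level of the members by cell state, as CPM of the summed reads with exact Poisson 95% intervals, for states of at least 10 cells in a group. Fev is highest in hormone-free Cpa1-low cells of Neurod1OE set 3 (188.6 CPM) and near 0 in hormone-free Cpa1-high cells, where Ddc stays above 100 CPM.

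Tph1, the hydroxylase gene of peripheral serotonin-producing cells such as enterochromaffin cells, gave 1 read in all 447 cells. That read was in a Neurod1OE cell of set 2 that was Fev-rich and high in Gcg. Tph2 (chromosome 10, 115078641 to 115185022) was more frequent but still rare. It reached 10 CPM in 12 Ngn3KO cells (5.85%, 3.06 to 10) and 9 Neurod1OE cells (7.69%, 3.58 to 14.1) of set 2. In set 3 it did so in 0 of 30 Ngn3KO cells, which leaves room for 10%, and in 1 of 95 Neurod1OE cells. All 22 Tph2-carrying cells were Gcg-high and none was insulin-high. In set 2, however, Gcg was high in 100% of Fev-rich and 98.1% of other Ngn3KO cells. It was high in 94.2% of Fev-rich and 98.5% of other Neurod1OE cells of that set. Insulin was high in only 10 Ngn3KO and 5 Neurod1OE cells of set 2. Neither hormone therefore sets the Tph2-carrying cells of set 2 apart from the rest. The highest cell of each group had 292 CPM from 34 reads in Ngn3KO set 2, 55 reads in Neurod1OE set 2, and 48 CPM from 30 reads in Neurod1OE set 3, so the call in these cells did not rest on single reads. In set 2 most of these cells were in the Gm12338-negative block, which held 10 of the 12 Ngn3KO and 8 of the 9 Neurod1OE cells with Tph2.

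Tph2 did not follow Fev in Ngn3KO cells of set 2, where 0 of 50 Fev-rich cells (a count that leaves room for 6%) and 12 other cells (7.74%, 4.06 to 13.1) carried it. Among Neurod1OE cells of set 2, 5 of 52 Fev-rich cells (9.62%, 3.20 to 21.03) and 4 of 65 other cells (6.15%, 1.70 to 15.01) carried it, and the intervals overlapped. The counts in Neurod1OE cells of set 3 were 0 of 33 Fev-rich and 1 of 62 other cells. Within the negative block of set 2, where nearly all Tph2 lay, 0 of 23 Fev-rich and 10 of 74 other Ngn3KO cells carried Tph2, against 5 of 34 Fev-rich and 3 of 32 other Neurod1OE cells. Of the Tph2-carrying cells, 8 of 12 in Ngn3KO set 2, 8 of 9 in Neurod1OE set 2 and the 1 of Neurod1OE set 3 also carried Ddc at 10 CPM, and 7, 6 and 1 of them a vesicle transporter. A hydroxylase, Ddc and a vesicle transporter came together in 5 Ngn3KO (2.44%) and 6 Neurod1OE cells (5.13%) of set 2, and in 0 of 30 Ngn3KO and 1 of 95 Neurod1OE cells of set 3. Of these, 0, 4 and 0 were Fev-rich in Ngn3KO set 2, Neurod1OE set 2 and Neurod1OE set 3.

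Lmx1a reached 10 CPM in 3 cells, all Ngn3KO cells of set 2 that were high in Gcg and not Fev-rich. Nearly all cells of that group were high in Gcg and only 24.4% were Fev-rich, so 3 cells show no link with either. The 3 cells had 42.1, 21.8 and 11.01 CPM of Lmx1a, and the cell with 21.8 CPM also carried Tph2 at 38.1 CPM. In no other group did a cell reach 10 CPM.

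Ddc was the widest member of the pathway. It ranged from 0 to 723 CPM in Ngn3KO cells of set 2 (median 44.4) and from 0 to 679 CPM in Neurod1OE cells of set 2 (median 56.8), with summed levels of 81.6 and 82.96 CPM and a log2 ratio of -0.02 (-0.09 to 0.05). In set 3 the median was 123.1 CPM in Ngn3KO and 34.4 CPM in Neurod1OE cells, and the highest cells had 494 and 785 CPM. The summed level was 160.6 CPM in Ngn3KO cells, and lay between 101.7 and 106.4 CPM (95% interval) in Neurod1OE cells. The log2 ratio of 0.62 (0.54 to 0.70) went against the median of all genes in set 3. Cells almost without Fev carried Ddc too. Among hormone-free Cpa1-high cells of set 3, Ddc reached 10 CPM in 26 of 28 Ngn3KO cells (170 CPM) and 10 of 11 Neurod1OE cells (110 CPM). The Gm12338 blocks of set 2 differed more than the genotypes, since Ddc was at 70.5 CPM in Ngn3KO and 57.2 CPM in Neurod1OE cells of the positive block, and at 95.8 and 110 CPM in the negative block. The sign of the Ddc difference between genotypes was thus opposite in the 2 blocks.

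Fev-rich cells carried Ddc about as often as other cells. The shares were 76% of Fev-rich and 76.1% of other Ngn3KO cells in set 2, 76.9% and 66.2% of Neurod1OE cells in set 2, and 63.6% and 56.5% of Neurod1OE cells in set 3, with overlapping intervals in each group. The log2 ratios of the summed level, Fev-rich over other, were -0.21 (-0.33 to -0.09), 0.20 (0.10 to 0.30) and 0.78 (0.69 to 0.88). In Neurod1OE cells of set 2 the ratio was 0.46 in the positive and -0.18 in the negative block.

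Slc18a1, the gene of VMAT1, ranged from 0 to 293 CPM in Ngn3KO and from 0 to 380 CPM in Neurod1OE cells of set 2, with medians of 0 and 3.45 CPM. The summed levels were 25.6 CPM (24.5 to 26.7) in Ngn3KO and 19.7 CPM (18.7 to 20.7) in Neurod1OE cells. In set 3, Ngn3KO cells had 1.86 CPM (1.33 to 2.52) and Neurod1OE cells 20.9 CPM (19.9 to 22.02), with highest cells of 38.2 and 190 CPM. On the log2 scale Ngn3KO over Neurod1OE gave 0.37 (0.24 to 0.50) in set 2 and -2.94 (-3.30 to -2.57) in set 3. As a mean over cells the value of set 2 was -0.22. Within hormone-free Cpa1-high cells of set 3, Slc18a1 was at 2.02 CPM in 28 Ngn3KO cells. Its 41 reads there lay in 3 cells, and 1 cell held 65.9% of them. The 11 Neurod1OE cells of that state had 0.351 CPM, from 5 reads in 1 cell. The log2 ratio was 1.16 (0.43 to 1.75), but no direction can be read from so few cells. By block in set 2, the level was 29.2 CPM in Ngn3KO and 16.4 CPM in Neurod1OE cells of the positive block, but 21.1 and 23.01 CPM in the negative block, so the higher value in Ngn3KO cells came from the positive block. Cells at 10 CPM were 39.02% of Ngn3KO and 43.6% of Neurod1OE cells in set 2, and 2 of 30 Ngn3KO and 27 of 95 Neurod1OE cells in set 3.

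Of the pathway genes, Slc18a1 was the one with a higher summed level in Fev-rich cells in every group that had them. It was at 33.7 CPM in Fev-rich and 23.3 CPM in other Ngn3KO cells of set 2, at 24.8 and 16.3 CPM in Neurod1OE cells of set 2, and at 36.9 and 13.2 CPM in Neurod1OE cells of set 3. The log2 ratios were 0.51 (0.33 to 0.70), 0.58 (0.38 to 0.78) and 1.42 (1.22 to 1.62), beside medians over all measured genes of 0.00, -0.03 and 0.10. The last exceeded 2-fold, as did 8.73% of 10687 measured genes in the same comparison. The shares of carrying cells lay closer together, at 46% of Fev-rich and 36.8% of other Ngn3KO cells in set 2, 53.9% and 35.4% of Neurod1OE cells in set 2, and 36.4% and 24.2% of Neurod1OE cells in set 3, with overlapping intervals. Read at an equal depth of 165298 reads per cell, 52.5% of Fev-rich and 43.3% of other Ngn3KO cells of set 2 held a read of Slc18a1, against 60% and 38.5% of Neurod1OE cells of set 2 and 36.7% and 30.4% of Neurod1OE cells of set 3. That reading left out 45 shallower cells. Without thinning the shares with a read were 56% and 46.5%, 69.2% and 44.6%, and 36.4% and 30.7%. By block, Slc18a1 in Ngn3KO cells of set 2 was at 41.7 CPM in Fev-rich and 25.7 CPM in other cells of the positive block (log2 ratio 0.68, 0.45 to 0.91), but at 23.8 and 20.4 CPM in the negative block (0.22, -0.10 to 0.53), where the carrying shares were 39.1% and 40.5%. The carrying shares of Neurod1OE cells of set 2 were 27.8% of Fev-rich and 24.2% of other cells in the positive block, and 67.7% and 46.9% in the negative block. The negative block held 34 of the 52 Fev-rich cells but 32 of the 65 others.

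**Figure D3:**
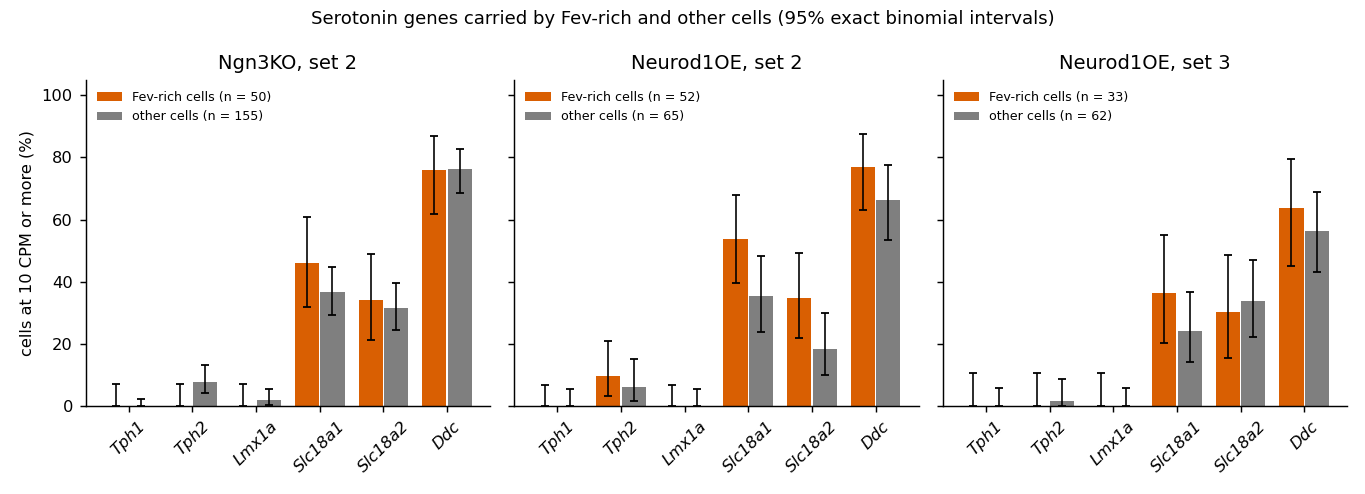
Share of cells that carry each of the serotonin genes at 10 CPM or more, in Fev-rich and in other cells, for the 3 groups with Fev-rich cells, with exact binomial 95% intervals. Ddc is carried by most cells of both classes, Slc18a1 by 46%, 53.9% and 36.4% of Fev-rich cells, and Tph1 by none.

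Set 3 separated Slc18a1 from Fev. Among Neurod1OE cells of that set, Slc18a1 was at 46.5 CPM in Gcg-alone cells (11 of 19 carrying), 49.4 CPM in cells high in Gcg with another hormone (7 of 13) and 41.9 CPM in cells high in another hormone without Gcg (7 of 11). In hormone-free Cpa1-low cells, where Fev was highest, it was at 2.41 CPM with 2 of 41 cells carrying it. Among Fev-rich cells alone, Slc18a1 gave no read in the 18 that were hormone-free, against 70.7 CPM and 9 of 11 cells in those that were Gcg-high. Set against a floor of 3 reads over the 18 cells (0.288 CPM), the level was at least 245-fold lower in the hormone-free Fev-rich cells. In that comparison 19.5% of 10684 measured genes were at least 2-fold lower and 22% at least 2-fold higher. All but 2 of the 27 Neurod1OE cells that carried Slc18a1 in set 3 were thus high in a hormone. This comparison within Fev-rich cells was chosen after the values had been seen.

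**Figure D4:**
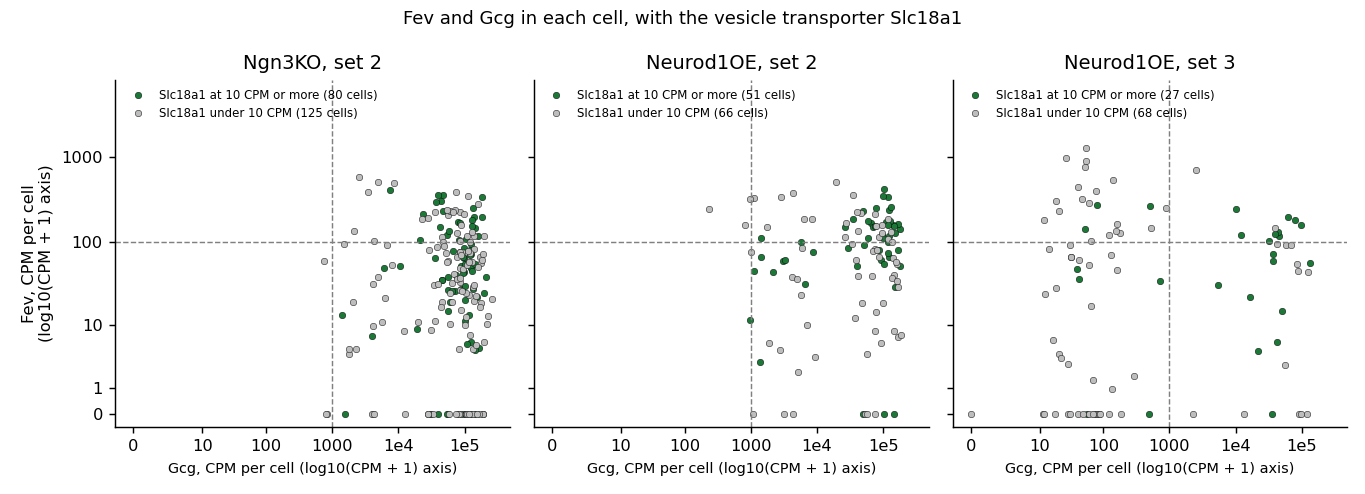
Fev against Gcg in each cell, both on the log10(CPM + 1) scale, for the 3 groups with Fev-rich cells. Green points are cells with Slc18a1 at 10 CPM or more (80 Ngn3KO cells of set 2, and 51 and 27 Neurod1OE cells of sets 2 and 3) and the others had less. In Neurod1OE set 3 none of the 18 hormone-free Fev-rich cells had a read of Slc18a1, whereas 9 of the 11 Gcg-high ones carried it.

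Within Gcg-alone cells of set 2, a subset also chosen after seeing the data, Slc18a1 was at 32.7 CPM in 33 Fev-rich and 20.1 CPM in 90 other Ngn3KO cells (13 and 32 cells carrying), and at 32.5 CPM in 35 Fev-rich and 15.7 CPM in 43 other Neurod1OE cells (23 and 13 carrying). The second ratio passed 2-fold. At least 2-fold higher in Fev-rich cells were 3.86% and at least 2-fold lower 5.17% of all measured genes in these Ngn3KO cells, and 5.37% and 6.25% in these Neurod1OE cells. In cells high in Gcg with another hormone the values were 35.4 CPM in Fev-rich and 29.3 CPM in other Ngn3KO cells, and 12.2 and 8.97 CPM in Neurod1OE cells. There 7.77% of all measured genes were higher and 10.8% lower in Ngn3KO cells, and 9.96% and 12.4% in Neurod1OE cells. Tph2 within Gcg-alone Ngn3KO cells was carried by 0 of 33 Fev-rich and 11 of 90 other cells.

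Slc18a2, the gene of VMAT2, reached 10 CPM in a minority of cells in every group. Its median was 0 in every group but Ngn3KO of set 3 (1.68 CPM), and its highest cells had 846 CPM in Ngn3KO and 215 CPM in Neurod1OE cells of set 2, and 280 CPM in Ngn3KO and 538 CPM in Neurod1OE cells of set 3. The summed levels were 35.5 CPM (34.2 to 36.9) in Ngn3KO and 19.2 CPM (18.2 to 20.2) in Neurod1OE cells of set 2, a log2 ratio of 0.85 (0.73 to 0.98). In set 3 they were 17.5 CPM (15.8 to 19.4) and 39.7 CPM (38.2 to 41.2), a ratio of -1.13 (-1.32 to -0.94), which is past 2-fold lower as were 31.8% of measured genes there. In set 2 the order was the same within both blocks, at 26.6 CPM in Ngn3KO and 17.6 CPM in Neurod1OE cells of the positive block and 46.8 and 20.8 CPM in the negative block. Cells at 10 CPM were 32.2% of Ngn3KO and 25.6% of Neurod1OE cells in set 2, and 40% and 32.6% in set 3. The lower sum in Ngn3KO cells of set 3 thus came with no lower share of cells. Within hormone-free Cpa1-high cells of set 3, Slc18a2 was at 18.9 CPM in Ngn3KO (12 of 28 cells) and 53.2 CPM in Neurod1OE cells (5 of 11). The highest state was Neurod1OE cells of set 3 with a hormone other than Gcg, at 137.7 CPM from 3 of 11 cells.

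Fev-rich cells had no common direction in Slc18a2. Its level was 27.7 CPM in Fev-rich and 37.8 CPM in other Ngn3KO cells of set 2 (log2 ratio -0.44, -0.62 to -0.25; -0.96 in the positive and -0.14 in the negative block), 28 and 13.4 CPM in Neurod1OE cells of set 2 (1.01, 0.81 to 1.21), and 49.2 and 35.1 CPM in Neurod1OE cells of set 3 (0.48, 0.33 to 0.63). The value of Neurod1OE set 2 was past 2-fold, beside 2.68% of 10168 measured genes, and the direction was the same in both blocks, with log2 ratios of 0.94 and 1.06, at 26.95 CPM in Fev-rich and 13.5 CPM in other cells of the positive block and 28.7 and 13.2 CPM in the negative block. One cell held 44.4% of the Slc18a2 reads of the Fev-rich cells of Neurod1OE set 3. Both vesicle transporters came together in 20% of Fev-rich and 11.6% of other Ngn3KO cells of set 2, 23.1% and 6.15% of Neurod1OE cells of set 2, and 12.1% and 6.45% of Neurod1OE cells of set 3. Ddc with a transporter was found in 44% and 47.7%, 53.9% and 30.8%, and 42.4% and 24.2% of the Fev-rich and other cells of these groups.

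The wider list of 45 genes held the enzymes of the tetrahydrobiopterin cofactor, uptake and breakdown, precursor transport, serotonin receptors, regulators and other amine enzymes. In set 2, 20 of the 45 were measured (10 CPM and a read in 10% of cells in either group) and none differed 2-fold between genotypes, where 0.859% of all 10010 measured genes were higher and 1.67% lower in Ngn3KO cells. The median log2 ratio of the list was 0.03 and of all genes -0.07. In set 3, 21 were measured, none was higher and 11 were lower in Ngn3KO cells, beside 5.96% and 31.8% of all 10478 measured genes. The list median was -1.02 and that of all genes -0.57. The 11 included Gch1, Qdpr, Maob, Slc29a4, Slc16a10, Lmx1b, Nkx2-2, Foxa2, Insm1 and Th. Gch1, which starts cofactor synthesis, was at 16.2 CPM in Ngn3KO and 114.8 CPM in Neurod1OE cells of set 3. Maob, a monoamine oxidase gene, was at 3.81 and 28.1 CPM, and Th, tyrosine hydroxylase of the catecholamine route, at 3.13 and 16.9 CPM. Within hormone-free Cpa1-high cells of set 3, none of 15 measured genes of the list was lower in Ngn3KO cells and Slc29a4 and Insm1 were higher, beside 7.66% higher and 15.2% lower of 9287 genes. There Gch1 was at 14.5 CPM in Ngn3KO and 17.3 CPM in Neurod1OE cells, Maob at 3.94 and 0.983 CPM, and Th at 0.098 and 0.211 CPM. All 7 cofactor genes were measured in both sets. None of the 13 receptor genes was, their reads summing to at most 2.23 CPM in a group. The serotonin reuptake transporter gene Slc6a4 had no read in Ngn3KO and 0.596 CPM in Neurod1OE cells of set 2, and 4.67 and 2.38 CPM in set 3.

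Between Fev-rich and other cells the same list moved little in set 2. In Ngn3KO cells 1 of 20 measured genes passed 2-fold, Th, which was at 22.8 CPM in Fev-rich and 55.4 CPM in other cells, beside 2.15% higher and 3.2% lower of 9919 genes. None of 20 did in Neurod1OE cells of set 2, beside 2.68% and 4.21% of 10168 genes. In Neurod1OE cells of set 3, 5 of 22 were higher in Fev-rich cells and none lower, beside 8.73% and 9.66% of 10687 genes. The list medians were -0.02, 0.12 and 0.42. The 5 included Gch1 (190 CPM in Fev-rich and 78.3 CPM in other cells), Maob (52.9 and 16.1 CPM), the aromatic amino acid transporter gene Slc16a10 (104.1 and 50.3 CPM) and the histidine decarboxylase gene Hdc (11.03 and 2.65 CPM). Lmx1b, a factor that serotonin neurons need, was carried by 6 of the 11 Gcg-high and 0 of the 18 hormone-free Fev-rich cells of that group, at 0.192 CPM in hormone-free and 39.8 CPM in Gcg-high ones.

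Markers of enterochromaffin cells, the serotonin cells of the gut, gave a mixed count. The 11 listed genes include the members Tph1, Lmx1a, Slc18a1 and Ddc. Of those measured, 3 of 6 were higher in Fev-rich Ngn3KO cells of set 2 (Reg4, Gstt1 and Rgs2). In Fev-rich Neurod1OE cells none of 4 was higher in set 2. In set 3, 3 of 5 were higher (Chgb, Slc18a1 and Gstt1) and Rgs2 was lower. Of all measured genes 2.15%, 2.68% and 8.73% were higher in these comparisons. Reg4 was at 43.1 CPM in Fev-rich and 1.74 CPM in other Ngn3KO cells of set 2, but at 0.735 and 7.92 CPM in Neurod1OE cells of set 3. Lists of general immune and of endothelial markers had no measured gene in any of these comparisons. Mast cells can also make serotonin. Of 6 mast cell genes, Kit was measured in each comparison and higher in Fev-rich Ngn3KO cells of set 2 and Neurod1OE cells of set 3, where Hdc was higher too. The list summed to 80.04 CPM in Fev-rich and 37.5 CPM in other Ngn3KO cells of set 2, 63.9 and 37.99 CPM in Neurod1OE cells of set 2, and 164.7 and 72.6 CPM in Neurod1OE cells of set 3. Kit made most of each sum. Mcpt4 and Ms4a2 had no read, and Cma1 and Cpa3 stayed below 1 CPM. Within Gcg-alone Ngn3KO cells of set 2, 0 of 4 enterochromaffin markers were higher in Fev-rich cells, beside 3.86% of all measured genes. Within those high in Gcg with another hormone 3 of 6 were (Reg4, Gstt1 and Rgs2), beside 7.77%. For Neurod1OE cells of set 2 the counts in these states were 2 of 5 (Chgb and Slc18a1) and 0 of 5, beside 5.37% and 9.96%.

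For hormones, Fev-rich cells of set 2 were nearly all glucagon cells. Gcg was high in 50 of 50 Fev-rich and all but 3 other Ngn3KO cells, and in 49 of 52 Fev-rich and 64 of 65 other Neurod1OE cells. It was high in fewer Neurod1OE cells of set 3, 11 of 33 Fev-rich (33.3%, 17.96 to 51.8) and 21 of 62 other cells (33.9%, 22.3 to 47.01). The gut and islet peptide gene Pyy was high in 98% of Fev-rich and 92.3% of other Ngn3KO cells of set 2, 98.1% and 96.9% of Neurod1OE cells of set 2, and 54.6% and 50% of Neurod1OE cells of set 3. Ppy, pancreatic polypeptide, was high in 15 of 50 Fev-rich (30%) and 35 other Ngn3KO cells (22.6%) of set 2, 14 of 52 and 15 of 65 Neurod1OE cells of set 2, and 4 of 33 and 7 of 62 Neurod1OE cells of set 3. The intervals of Fev-rich and other cells overlapped for each of these shares.

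Insulin, Ghrl and Sst were high in few Fev-rich cells, as in few other cells. Insulin was high in 0 of 50 Fev-rich Ngn3KO cells of set 2 (exact interval 0 to 7.11%). It was high in 10 other Ngn3KO cells of that set (6.45%, 3.14 to 11.54), and the intervals overlapped. In Neurod1OE cells it was high in 2 of 52 Fev-rich and 3 of 65 other cells of set 2, and in 0 of 33 and 1 of 62 of set 3. Ins2 was at 155.7 CPM in Fev-rich and 5143 CPM in other Ngn3KO cells of set 2, but 1 cell held 53.7% of the reads of the other cells, and the medians were 89.3 and 64.7 CPM. Ghrl was high in 3 of 50 Fev-rich (6%) and 21 other Ngn3KO cells (13.6%) of set 2, 3 of 52 and 7 of 65 Neurod1OE cells of set 2, and 4 of 33 and 7 of 62 Neurod1OE cells of set 3. Sst was high in 1 Fev-rich and 1 other Ngn3KO cell of set 2, no Neurod1OE cell of set 2, and 1 of 33 Fev-rich and 2 of 62 other Neurod1OE cells of set 3.

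**Figure D5:**
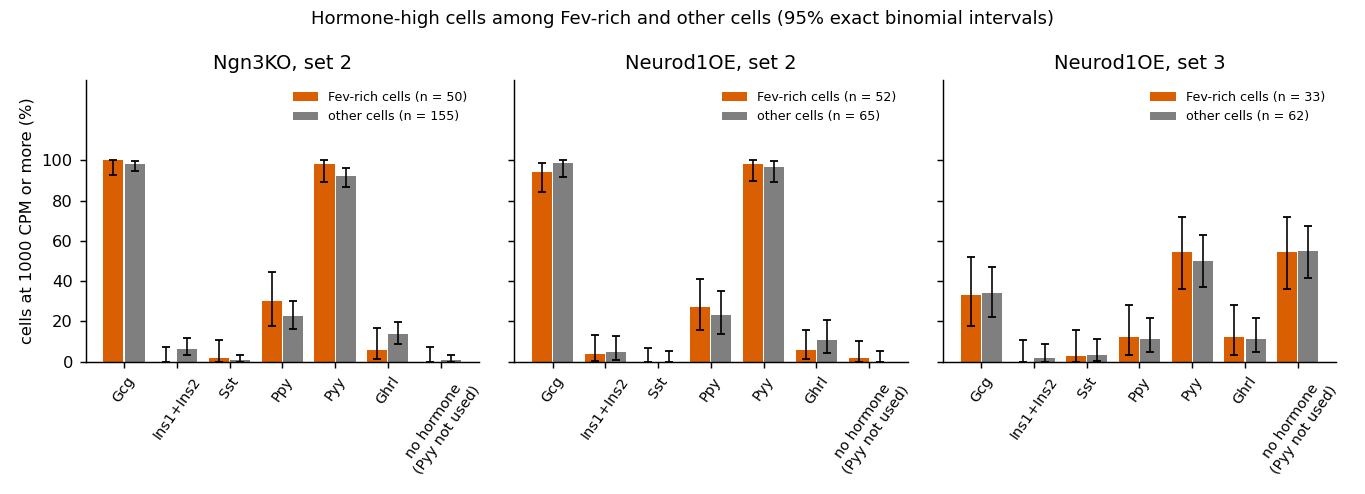
Share of cells with each hormone at 1000 CPM or more, in Fev-rich and in other cells, with exact binomial 95% intervals, for the 3 groups with Fev-rich cells. Gcg and Pyy are high in nearly all cells of set 2, and 54.6% of Fev-rich cells of Neurod1OE set 3 are high in none of the 5 hormones used for states.

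Cells without any of the 5 hormones at a high level, called hormone-free here, were about as frequent among Fev-rich as among other cells. High in none of Gcg, insulin, Sst, Ppy and Ghrl were 0 of 50 Fev-rich and 1 other Ngn3KO cell (0.645%) of set 2, 1 of 52 and 0 of 65 Neurod1OE cells of set 2, and 18 of 33 (54.6%, 36.4 to 71.9) and 34 of 62 (54.8%, 41.7 to 67.5) Neurod1OE cells of set 3. Pyy, which is not among these 5, was high in 4 of the 18 Fev-rich and 4 of the 34 other cells of set 3 and in both such cells of set 2. Reads of the neuropeptide gene Nts were missing from every Fev-rich cell, but also from 98.7% of other Ngn3KO cells of set 2 and from every other Neurod1OE cell. Tac1, which encodes substance P, had no read in 49 of 50 Fev-rich and 96.8% of other Ngn3KO cells of set 2, 49 of 52 and 63 of 65 Neurod1OE cells of set 2, and 32 of 33 and 62 of 62 Neurod1OE cells of set 3. The secretin gene Sct was read in every cell of both classes, and Gcg in every Fev-rich cell. The Fev-rich cell lowest in Gcg, of Neurod1OE set 3, had 11.8 CPM. Hormone-free here thus means under 1000 CPM and not without reads.

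Of the 15 hormone genes, 13 were measured between Fev-rich and other Ngn3KO cells of set 2, with 1 at least 2-fold higher (Sst) and 6 lower (Ins1, Ins2, Ghrl, Iapp, Npy and Gip). Of all measured genes 2.15% were higher and 3.2% lower there. The higher Sst came from 1 cell with 99.1% of the reads. Ins1 and Ins2 were lower in the positive block (log2 ratios -5.66 and -5.45) but not in the negative block (1.35 and -0.18). In Neurod1OE cells of set 2, 3 of 13 were higher (Cck, Gast and Npy) and 2 lower (Ins1 and Ghrl), beside 2.68% and 4.21% of all measured genes. One cell held 85.3% of the Npy reads of the Fev-rich cells, and the log2 ratio of Npy was -1.58 in the positive block but 3.56 in the negative one. For Gast these were 2.27 and -0.19, with medians over all cells of 164.3 CPM in Fev-rich and 177.5 CPM in other cells. In Neurod1OE cells of set 3, 1 of 12 was higher (Cck, 301 CPM in Fev-rich and 19.7 CPM in other cells, with 1 cell holding 61.4% of the Fev-rich reads) and 5 were lower (Ins2, Sst, Ghrl, Gast and Npy), beside 8.73% and 9.66% of all measured genes. A single cell held 97.1% of the Ins2, 51.98% of the Sst, 64.8% of the Ghrl and 58.8% of the Gast reads of the other cells. Ghrl was the hormone gene lower in all 3 groups, at 588 CPM in Fev-rich and 1363 CPM in other Ngn3KO cells of set 2, 290.1 and 694 CPM in Neurod1OE cells of set 2, and 391 and 1507 CPM in Neurod1OE cells of set 3. The medians, 24.5 and 30.3 CPM, 32.4 and 19.5 CPM, and 35.4 and 32.2 CPM, did not share that direction, so the difference rested on the few Ghrl-high cells. In the Gm12338-positive block of Ngn3KO cells it ran the other way, with 879 CPM in Fev-rich and 677 CPM in other cells, against 231 and 2241 CPM in the negative block.

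Among all genes, 9261 were measured in the 3 comparisons of Fev-rich with other cells. Of them 1 was at least 2-fold higher in all 3 and 11 lower in all 3. The higher one, Fbxo32, a muscle-atrophy ubiquitin ligase gene, was at 24.6 CPM in Fev-rich and 9.27 CPM in other Ngn3KO cells of set 2, 34.9 and 5.52 CPM in Neurod1OE cells of set 2, and 21.8 and 5.14 CPM in Neurod1OE cells of set 3. It was named after its values had been seen. In Ngn3KO cells of set 2 it was carried by 6 of 50 Fev-rich and 23 other cells, so the Fev-rich share was not the higher one. In Neurod1OE cells the Fev-rich share was higher, at 11 of 52 against 12 of 65 in set 2 and 11 of 33 against 5 of 62 in set 3. The rule for named genes, which asks for 50 CPM in the higher class, gave no higher gene and 2 lower ones, Ghrl and Rrm2. Rrm2 is a subunit gene of ribonucleotide reductase used in DNA replication. It was at 16.2 CPM in Fev-rich and 63.6 CPM in other Ngn3KO cells of set 2. The values were 36.3 and 84.7 CPM in Neurod1OE cells of set 2, and 0.865 and 139.2 CPM in Neurod1OE cells of set 3. Its median was 0 in both classes of all 3 groups. A single cell held 45.8% of the Fev-rich reads in Ngn3KO and 52.1% in Neurod1OE cells of set 2. The share of carrying cells was higher in Fev-rich cells of Neurod1OE set 2 (11 of 52, against 10 of 65). It was lower in those of Neurod1OE set 3 (1 of 33, against 20 of 62) and of Ngn3KO set 2 (8 of 50, against 33 other cells). Of 7 cycling markers, 0 passed 2-fold in Ngn3KO cells of set 2, 1 was higher in Neurod1OE cells of set 2 (Cenpf) and 6 were lower in Neurod1OE cells of set 3. Of all measured genes 2.15%, 2.68% and 8.73% were higher and 3.2%, 4.21% and 9.66% lower in these comparisons. Within Gcg-alone Ngn3KO cells of set 2, all 7 were lower in Fev-rich cells, with sums of 122.9 and 494.5 CPM, beside 5.17% of all measured genes. Within Gcg-alone Neurod1OE cells of set 2, 1 was higher (Cenpf) and none lower.

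Fev-stage precursor markers were higher in Fev-rich cells mainly in set 3. Of 10 listed genes other than the member itself, 0 of 8 measured passed 2-fold in Ngn3KO cells of set 2, 1 of 8 in Neurod1OE cells of set 2 (Cck), and 6 of 10 were higher in Neurod1OE cells of set 3 (Pax4, Chgb, Cck, Runx1t1, Cryba2 and Neurod2), with a list median of 1.14 beside 0.10 for all genes and beside 8.73% of all measured genes higher. In the set 2 comparisons 2.15% and 2.68% of all genes were higher. In the same comparison the acinar list summed to 511 CPM in Fev-rich and 6220 CPM in other cells (8 of 10 measured lower), and the duct list to 730 and 2466 CPM (7 of 9 lower), so exocrine markers were higher in the other cells. The part of that in the differences was not tested. In set 2 the acinar sums were 122.5 CPM in Fev-rich and 108.5 CPM in other Ngn3KO cells, and 102.8 and 744 CPM in Neurod1OE cells.

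Within the hormone-free Cpa1-low cells of Neurod1OE set 3, 18 were Fev-rich and 23 were not, a subset set apart after seeing the data. Fev was at 439 CPM in the Fev-rich and 23.1 CPM in the other cells. Pax4, a factor of endocrine precursors, was at 180.7 CPM (10 of 18 cells) and 20.3 CPM (4 of 23). Neurod1 was at 476 and 197.4 CPM, with medians of 379 and 165.3 CPM. Chgb, a granule protein gene, was at 646 and 176.1 CPM, and Cryba2 at 443 and 170 CPM. Neurog3 summed to 85.7 and 13.2 CPM but from 2 cells of each class. Of 16 pan-endocrine markers 11 were higher and none lower, and of 8 measured duct markers 7 were lower, with sums of 536 CPM in Fev-rich and 5078 CPM in other cells. In this comparison 14.3% of 10701 measured genes were higher and 17.7% lower.

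The serotonin members gave little in these same cells. Slc18a1 had 0 of 18 carrying cells among the Fev-rich and 2 of 23 among the others, and Tph1 and Tph2 had no read in either. Slc18a2 was at 35.2 CPM (5 of 18) and 22.98 CPM (6 of 23). Ddc was at 154.5 CPM (8 of 18) and 92.2 CPM (9 of 23), with medians of 0 and 3.53 CPM. Of the wider list, 6 of 18 measured genes were higher, among them Maob, Slc3a2, Slc16a10, Nkx2-2 and Foxa2, and none was lower. Of all 10701 measured genes 14.3% were higher and 17.7% lower in this comparison.

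Against Gcg-high Fev-rich cells of the same group, the 18 hormone-free Fev-rich cells had more Fev (439 CPM, against 188.4 CPM in the 11 Gcg-high cells), more Pax4 (180.7 against 8.34 CPM) and more Neurod1 (476 against 204.6 CPM). Their Ddc was 154.5 CPM from 8 of 18 cells, against 171.6 CPM from all 11 Gcg-high cells. Cck was at 16.4 CPM in hormone-free and 697 CPM in Gcg-high cells, and Th at 1.06 and 36.1 CPM. As given above, a single cell held most of the Cck reads of the Fev-rich cells of this group. Of 7 cycling markers all 7 were higher in the hormone-free cells, with sums of 317 and 17.9 CPM, and of 8 endocrine progenitor markers 5 were higher. In this comparison 22% of 10684 measured genes were at least 2-fold higher and 19.5% at least 2-fold lower.

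The 10 genes whose levels followed Fev most closely from cell to cell included Gse1, Maged1, Foxa2, Zcchc18, Vwa5b2, Pax6, Cystm1, Cryba2 and Chic1. The measure was Pearson's r of log2(CPM + 1), averaged over the 3 groups of at least 50 cells, among 8368 genes measured in each. Gse1 led with a mean of 0.27, made of 0.11 in Ngn3KO and 0.12 in Neurod1OE cells of set 2 and 0.59 in 95 Neurod1OE cells of set 3. Cryba2, whose gene lies 4514 bases from Fev on chromosome 1, reached 0.61 in Neurod1OE cells of set 3 but 0.05 and 0.02 in Ngn3KO and Neurod1OE cells of set 2. By rank correlation 3 of the 10 genes (Gse1, Maged1 and Foxa2) were again in the first 10. The mean r was 0.15 for Slc18a1, 0.05 for Slc18a2 and 0.01 for Ddc. Cells of a group share their library preparation and differ in depth, and such weak correlations in sparse counts are a description.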

How the data were processed

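Smart-seq3 cDNA of sorted single cells was read as paired ends, per the labels' protocols. The authors deposited raw counts per gene and cell, as 1 matrix per set. The submitters' processing notes name Trimmomatic 0.39, HISAT2 2.1.0, featureCounts 2.0.0 and mm10. The annotation, the use of strand or UMIs and any filter on cells are not given in the sources used here, and no cell was left out here or called a doublet. Spike-in rows were left out of totals, and counts were scaled to CPM.

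The members and gene lists were chosen with earlier results of these data known. Levels are CPM of summed reads. Ratios are log2(CPM + 1), counted at 2-fold among genes with 10 CPM and a read in 10% of cells in either class. A gene was carried at 10 CPM, and a hormone was high at 1000 CPM. Named genes were the members, the listed genes, the 10 most like Fev (some genes of these lists are not reported here), and those 2-fold in every comparison of Fev-rich with other cells with 50 CPM in the higher class. Comparisons within cell states and, for Fev-rich cells, within Gm12338 blocks were chosen after seeing the data. The scaling of edgeR 4.0.16 and the size factors of DESeq2 1.42.0 were alternatives, and no count test was run, since a group is 1 sample. The planned sums and ratios were tested on simulated data. Python 3.11.15, numpy 2.4.6, scipy 1.17.1, pandas 2.3.3 and R 4.3.3 were used.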

Additional observations from a re-analysis of the deposited data

Results flagged for a closer look

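Slc18a1 and Slc18a2 had opposite directions between genotypes in the 2 sets when all cells were summed. As log2 ratios, Ngn3KO over Neurod1OE gave 0.37 in set 2 and -2.94 in set 3 for Slc18a1, and 0.85 in set 2 and -1.13 in set 3 for Slc18a2. Within hormone-free Cpa1-high cells of set 3 the ratio was 1.16 for Slc18a1 and -1.44 for Slc18a2. The Slc18a1 value rested on 41 reads in 3 of 28 Ngn3KO cells and 5 reads in 1 of 11 Neurod1OE cells. No direction can be read from so few cells. As a mean over cells Slc18a1 had -0.22 in set 2. The difference between the sets was not tested, since each group is 1 sample. Sex, Cpa1 state and hormone state differed between the sets as well.

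Reads assigned to spike-in sequences, which no comparison uses, numbered 12 in Ngn3KO and 12 in Neurod1OE cells of set 2, and 0 in both groups of set 3.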

How the results depend on the processing

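No paired analysis was possible because the numbers in the titles only name cells and no result comes from a test between samples. With Fev limits of 50 and 200 CPM in place of 100, the Fev-rich share was 45.4% and 11.7% of Ngn3KO and 66.7% and 14.5% of Neurod1OE cells in set 2, and 49.5% and 16.8% of Neurod1OE cells in set 3. The share of hormone-free cells among Fev-rich cells became 0 in Neurod1OE set 2 at a Fev limit of 200 CPM or a hormone limit of 500 CPM. In Neurod1OE set 3 it became 75% at a Fev limit of 200 CPM. Tph1 or Tph2 was carried by 0% of Fev-rich Neurod1OE cells of the Gm12338-positive block. The log2 ratio of Fev in set 2 was -0.35 in the positive block, -0.55 in the negative block and -0.58 among female cells. Within hormone-free Cpa1-high cells of set 3 it was 0.093, and that of Slc18a1 1.16, against -5.17 and -2.94 over all cells. These 2 values rested on few reads. Fev had 12 reads in Ngn3KO and 7 in Neurod1OE cells of that state, and Slc18a1 had 41 and 5. In set 3 the ratio of Fev was -5.99 without the top cells, -4.76 with TMM scaling, -4.74 with DESeq2 size factors, and -5.66 and -3.31 with pseudocounts of 0.1 and 10 CPM. Without the filter on low counts, genes 2-fold higher and lower numbered 460 and 624 between genotypes in set 2, 1121 and 5634 in set 3, and 785 and 1304, 974 and 1413, and 1884 and 2415 between Fev-rich and other cells of Ngn3KO set 2, Neurod1OE set 2 and Neurod1OE set 3, by construction more genes than with it. In set 3, TMM and DESeq2 gave 1343 and 1410 higher and 1879 and 1819 lower genes, and the median of all genes became -0.10 and -0.07. As a mean over cells, 97 genes were lower in set 2 and 592 higher in Fev-rich cells of Neurod1OE set 3; the cause was not tested. Of the comparisons of the main results with an alternative, 78 kept their value within its spread, 34 moved and 1 reversed. That count does not cover every change of sign given here. Slc18a1 in set 2 changed sign as a mean over cells. In set 3 Fev and Slc18a1 changed sign within hormone-free Cpa1-high cells, on few reads. In the shallowest cell 1 read was worth 38.8 CPM, and in 16 cells a single read passed the 10 CPM at which a gene counted as carried.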
